A study of Danio rerio with 20 samples.

Results

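Myosin heads do not fold unaided in striated muscle. UNC45B, a myosin chaperone that works with HSP90, holds the motor domain during folding. SMYD1, a muscle lysine methyltransferase with a SET and a MYND domain, is needed in zebrafish embryos for thick filaments to assemble, and METTL21C is a lysine methyltransferase enriched in mammalian skeletal muscle, where alanyl-tRNA synthetase is among its substrates. These 4 genes (ENSDARG00000078878, listed as METTL21C, the paralogues smyd1a and smyd1b, and unc45b) were measured in muscle of adult zebrafish at rest and after a swim tunnel, and are 4 of the 32105 genes in the count table.

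The genes were chosen by name for their roles in myosin assembly and muscle lysine methylation, from a reading of the same libraries in which their levels across the groups were already known. Which measured values prompted the choice is not recorded, so every value of the 4 genes below is a description, and the p-values show only where each gene falls among all genes tested. The name table gives SMYD1 for both ENSDARG00000009280 and ENSDARG00000091253 and does not say which is smyd1a and which smyd1b. They are called here the major and the minor SMYD1 paralogue, after their levels per base of transcript. All 4 passed the filter on low counts, which kept 17025 genes.

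The 20 libraries came from muscle of male fish of the strain AB JxTu, with 5 fish samples aged 1 year and kept without perturbation, 5 aged 1 year and exposed to the swim-tunnel, and the same numbers at 3 years. No genetic change or agent is named in any group, and the labels give no swim duration, sampling time, batch, pairing or pooling of fish, nor the muscle that was taken. Replicates are therefore taken as separate samples as labelled, libraries carry numbers in order of their records, and p-values reflect how these samples vary, which may be technical in part. Each library held 3.16e+07 to 4.89e+07 counts, and replicate pairs differed far beyond counting error (chi-square per degree of freedom of 38.8 to 222 over 40 pairs). Muscle fibre markers, 14 of 14 tested, summed to between 120466 and 264793 CPM (counts scaled to library size) in every library, so the tissue label was met. Libraries stood apart in other ways. Slow fibre markers, 8 of 9 tested, summed to 127 to 2241 CPM in the 1-year swim group and 210 to 2086 CPM in the other libraries. Epidermis scores, the mean centred log2 level of the 15 tested of 18 markers, were 3.79 in 1-year rest library 5 and 2.78 and 2.87 in 3-year swim libraries 1 and 3. Exocrine pancreas markers, 16 of 21 tested, summed to 40.3 to 251 CPM in the 1-year swim group and 2.67 to 26.5 CPM in all other libraries, and liver markers, 16 of 18 tested, to 413 to 1316 CPM against 251 to 476 CPM. Library scaling factors (TMM) were 0.659 to 0.946 in that group against 0.837 to 1.25 elsewhere. In bulk tissue, fewer cells of a type and less RNA per cell cannot be told apart.

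The 4 genes differed widely in level. In units scaled to transcript length as well as library size (RPKM, recomputed from the counts with each library's own total), the major SMYD1 paralogue averaged 651 over the 20 libraries, above 99% of genes tested. The minor paralogue averaged 93 and lay above 97%, UNC45B averaged 31 and lay above 94%, and METTL21C averaged 9.49 and lay above 86%. The ranges did not meet for the SMYD1 pair, with 445 to 1024 RPKM for the major and 49.6 to 144 RPKM for the minor paralogue. UNC45B spanned 9.59 to 65.7 RPKM and so overlapped the lower end of the minor paralogue. METTL21C had the widest relative range, from 0.513 to 41 RPKM.

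**Figure D1:**
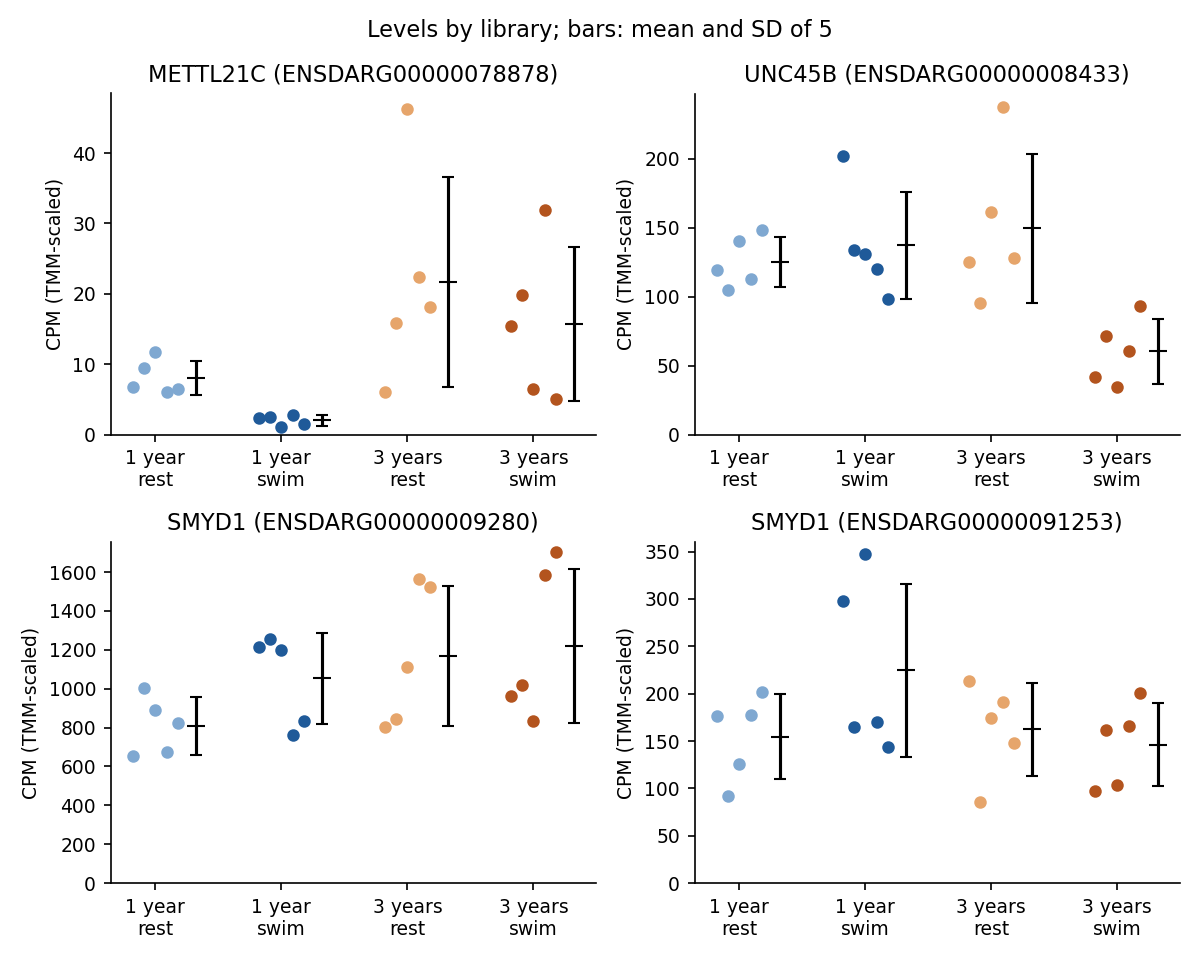
CPM on TMM-scaled library sizes for METTL21C, UNC45B and the SMYD1 pair; each point is 1 library, and the bars beside them are mean and SD of 5. METTL21C is lowest in all 5 swim libraries at 1 year (at most 2.76), and UNC45B in all 5 swim libraries at 3 years (at most 93).

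METTL21C was lowest in young fish that had swum and highest on average in old fish. At 1 year of age without exercise the CPM in the 5 libraries were 6.75, 9.46, 11.7, 6.09 and 6.53, a mean of 8.1 ± 2.39 (SD, n = 5). After the swim tunnel at 1 year they were 2.33, 2.48, 1.03, 2.76 and 1.51, a mean of 2.02 ± 0.723, resting on 25 to 103 counts per library. All 5 of these lay below every one of the 15 other libraries, which held for 0.288% of genes tested. In resting fish of 3 years the values were 6.06, 15.8, 46.2, 22.4 and 18.1 (21.7 ± 14.9), and in swum fish of 3 years 15.4, 19.9, 6.46, 31.9 and 5.1 (15.8 ± 10.9). The old groups overlapped each other and the young resting group, and their spread was wide.

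In terms of the fit, METTL21C rose with age among swum fish by 2.96 ± 0.52 on the log2 scale (SE), a 7.77-fold difference of the group levels, with an adjusted p of 0.000981 in edgeR's quasi-likelihood test over all genes. The groups did not overlap, as for 12.9% of genes in that comparison, and 17.7% of genes tested passed the test, among them 2 of the 4 genes described here (METTL21C and UNC45B). In each of the other 4 comparisons 0 of the 4 passed in edgeR. The call was kept in 30 of 30 alternative settings, between 2.26 and 3.26. Among resting fish the log2 difference with age was 1.42 ± 0.48 (adjusted p = 0.152 in edgeR), where 1.19% of genes passed. Markers of other cell types moved in the same comparison of old with young swum fish. Of 18 leukocyte markers, all tested and none at 0 throughout a group, 8 rose and 17 were positive, with a median log2 change of 1.00 against 0.04 for all genes. They summed to 111 to 252 CPM in young swum and 291 to 428 CPM in old swum fish, against 138 to 466 CPM and 218 to 356 CPM in young and old resting fish. Liver markers fell for 15 of the 16 tested and exocrine pancreas markers for 14 of the 16 tested. The part of these cell types in the rise of METTL21C, or in the fall of UNC45B in the same comparison, was not tested.

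The swim contrast of METTL21C at 1 year was -2.00 ± 0.50 on the log2 scale, 3.99-fold lower, and missed the threshold in edgeR with an adjusted p of 0.0564. Here 1.14% of genes passed, and 1.61% of genes had all swum below all resting libraries. It passed in 7 of 30 alternative settings, between -2.34 and -1.82, and an adjusted p of 0.356 was reached without the 1-year swim libraries 2 and 3, which had the lowest scaling factors. At 3 years the swim contrast was -0.46 ± 0.47 (adjusted p = 0.813 in edgeR), against 0.0705% of genes passing, and became 0.02 without 3-year rest library 3, the highest. The difference between the swim contrasts at the 2 ages was 1.53 ± 0.68 (adjusted p = 0.305 in edgeR), where 0.335% of genes passed, so the data do not show that they differ. The pancreas and liver markers and the scaling factors moved with the young swum group. In the same contrast 15 of 15 epidermis, 15 of 18 nerve and glia and 17 of 18 leukocyte markers were negative. Their median log2 changes were -2.03, -1.55 and -0.48, and 0 of them passed in edgeR. The part of any of these in the level of METTL21C was not tested. Scaled by library totals alone, the swim contrast of METTL21C at 1 year was -2.34, while the median of all genes moved from -0.01 to -0.40.

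**Figure D2:**
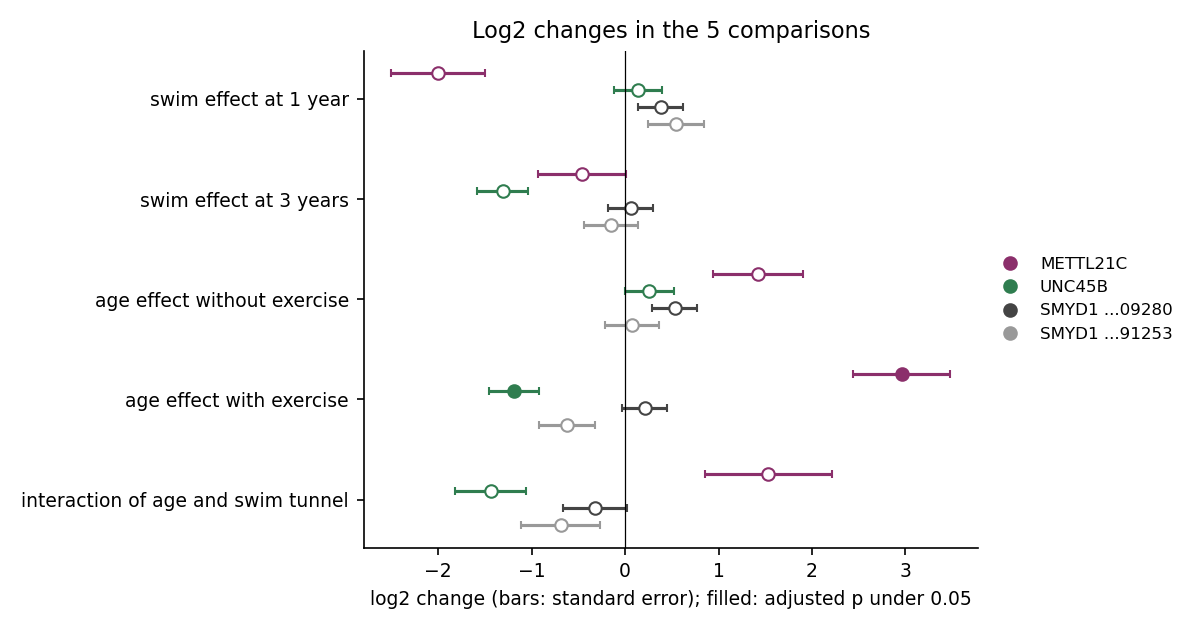
Log2 changes of METTL21C, UNC45B and the SMYD1 pair in the 5 comparisons, with standard errors; filled points have an adjusted p under 0.05 over all genes tested. The filled points are METTL21C (2.96) and UNC45B (-1.19) in the age effect with exercise.

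METTL21C had a paralogue of the same symbol, ENSDARG00000055437, which was the more abundant per base, with group means of 27.2 to 57.8 RPKM against 1.32 to 18.2 RPKM. Its CPM were 12 to 56.1 with a median of 31.1 at 1 year at rest, and 10.9 to 146 with a median of 26.7 after swimming at 1 year. At 3 years they were 35.2 to 68.6 at rest and 30.4 to 90.7 after swimming. The groups overlapped throughout and none of its 5 contrasts passed in edgeR. Its age contrast with exercise passed in 2 of 30 alternatives, with voom (1.83, adjusted p = 0.0155) and without the 2 young swum libraries of lowest scaling factor (2.16, adjusted p = 0.00804 in edgeR). The swim contrast at 1 year was 0.76 ± 0.56 (adjusted p = 0.464 in edgeR), opposite in sign to that of the lower paralogue. How reads that fit both copies were counted is not given in the sources used here.

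A further relative, ENSDARG00000016343, is listed under the symbol METTL21EP, that of a human pseudogene. In swum fish it rose with age from 5.41 to 10.6 CPM across the 1-year libraries to 12.8 to 27.4 CPM at 3 years. The groups did not overlap, as for 12.9% of genes in that comparison. The log2 change was 0.91 ± 0.26 (adjusted p = 0.0214 in edgeR, where 17.7% of genes passed), and the call was kept in 28 of 30 alternatives. At rest it had 6.99 to 15.1 CPM at 1 year and 12.8 to 21.5 CPM at 3 years. That age contrast had the same sign, 0.66 ± 0.26, and did not pass (adjusted p = 0.218 in edgeR). Its swim contrasts were -0.32 ± 0.26 at 1 year and -0.06 ± 0.26 at 3 years and passed at neither age. METTL21A, which methylates HSP70 proteins in human cells, and VCPKMT, which methylates the ATPase VCP, were near the bottom of the tested range at 0.398 to 1.4 CPM and 0.519 to 2.14 CPM, and passed in no comparison in edgeR.

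**Figure D3:**
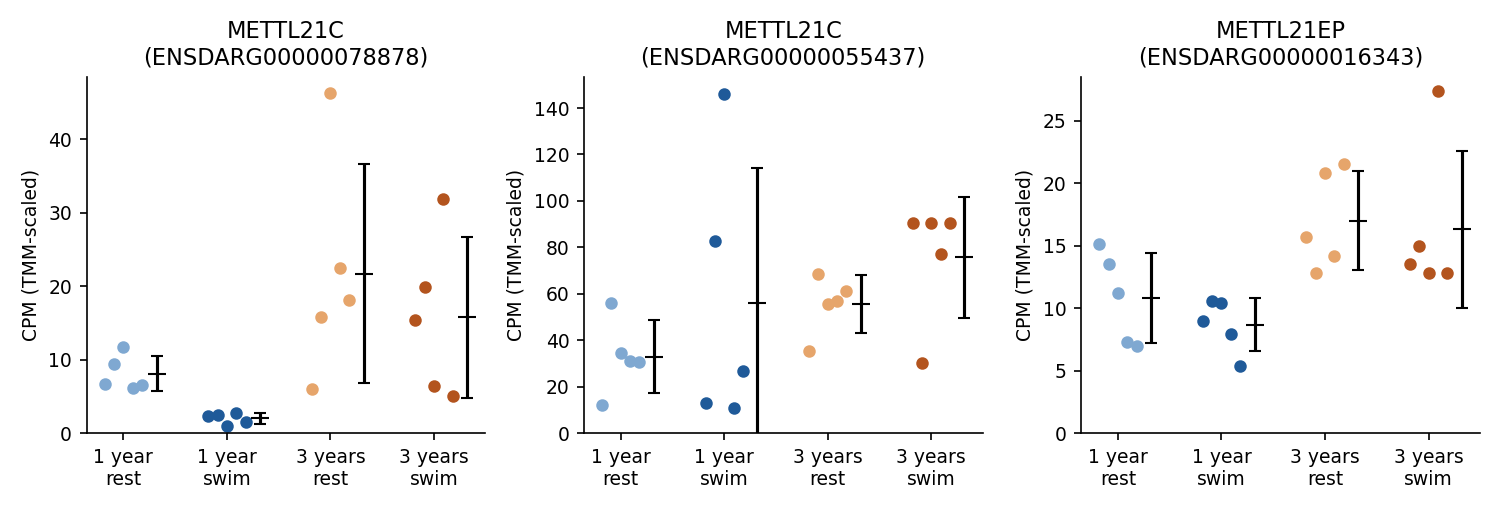
CPM by library for the METTL21C gene, its paralogue of the same symbol and METTL21EP; points are libraries and bars mean and SD of 5. The young swum libraries lie below all others for METTL21C (mean 2.02), while those of the paralogue spread from 10.9 to 146.

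UNC45B was lowest in old fish that had swum. In resting fish of 1 year its CPM were 119, 105, 140, 113 and 148 (125 ± 18.3), and in swum fish of that age 202, 134, 131, 120 and 98.4 (137 ± 38.9). In resting fish of 3 years they were 125, 95.7, 161, 237 and 128 (149 ± 54.2). After the swim tunnel at 3 years they were 41.9, 71.7, 34.6, 60.4 and 93 (60.3 ± 23.5), each below every one of the other 15 libraries, as for 0.305% of genes tested. The other 3 groups overlapped and their means were close.

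With age among swum fish UNC45B fell by 1.19 ± 0.27 on the log2 scale, 2.28-fold, with an adjusted p of 0.00536 in edgeR. The swim contrast at 3 years was of like size, -1.31 ± 0.27 (2.48-fold), but did not pass over all genes in edgeR (adjusted p = 0.101); it passed with DESeq2 alone of 30 alternatives (-1.30, adjusted p = 0.00137). In this comparison 0.793% of genes had all swum below all resting libraries. Both contrasts share the 3-year swum libraries. At 1 year the swim contrast was 0.14 ± 0.26 (adjusted p = 0.807 in edgeR), and the age contrast at rest 0.26 ± 0.26 (adjusted p = 0.668). The difference between the swim contrasts at the 2 ages was -1.44 ± 0.38 and reached an adjusted p of 0.0935 in edgeR, and of 0.019 with DESeq2. The lowest UNC45B levels, 34.6 and 41.9 CPM, were those of 3-year swim libraries 3 and 1, the pair with high epidermis scores. Without these and 1-year rest library 5, the age contrast with exercise was -0.84 ± 0.27 and no longer passed (adjusted p = 0.0643 in edgeR). The remaining 3-year swum libraries had 60.4, 71.7 and 93 CPM, and the lowest of the 15 libraries of the other groups had 95.7 CPM. Muscle fibre scores in the 3-year swum group were -0.09 to 0.27 and overlapped those of the other groups, -0.34 to 0.26. In the swim contrast at 3 years 8 of the 8 slow fibre markers tested were negative and 0 passed in edgeR, with a median log2 change of -0.32. In the age contrast with exercise 4 were positive and 4 negative. Within the 3-year swum group, libraries 1 and 3 had the highest slow fibre scores, 1.41 and 1.21, against -1.26 to -0.02 in the others. They also had the highest leukocyte scores, 0.96 and 0.87 against -0.16 to 0.32. Heart scores, over 3 of 9 markers tested, were 2.79 and 2.67 against -2.37 to 0.89. The part of the epidermis signal, slow fibres, leukocytes or heart markers in the level of UNC45B was not tested.

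The paralogue UNC45A, the general form expressed outside muscle in mammals, was at 1.22 to 2.63 CPM in all libraries and passed in no comparison in edgeR. Its age contrast with exercise was -0.22 ± 0.17 (adjusted p = 0.409 in edgeR).

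The SMYD1 pair passed in no comparison in the fit, nor in any alternative setting. The major paralogue had 652, 1004, 891, 674 and 822 CPM in resting fish of 1 year (809 ± 148) and 1212, 1255, 1201, 763 and 833 CPM after swimming (1053 ± 235). At 3 years it had 805, 842, 1114, 1563 and 1521 CPM at rest (1169 ± 361) and 960, 1019, 835, 1583 and 1702 CPM after swimming (1220 ± 394). Group means of these TMM-scaled CPM stood in the order young rest, young swum, old rest, old swum, but each neighbouring pair overlapped. In RPKM, which use library totals, the means of these groups were 549, 538, 779 and 739, with each swum mean below the resting mean of its age. The widest contrast of the major paralogue, age at rest, was 0.53 ± 0.24 (adjusted p = 0.281 in edgeR). Its swim contrast at 3 years was 0.06 ± 0.24 on the log2 scale.

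The minor SMYD1 paralogue had 176, 91.8, 126, 178 and 202 CPM in resting fish of 1 year (155 ± 44.8) and 298, 165, 347, 170 and 144 CPM after swimming (225 ± 91.5). In fish of 3 years it had 213, 85.4, 174, 191 and 148 CPM at rest (162 ± 49) and 97.7, 162, 104, 166 and 201 CPM after swimming (146 ± 43.9). Libraries 1 and 3 of the young swum group were the highest of the 20, and all groups overlapped. Its age contrast with exercise was -0.62 ± 0.30 (adjusted p = 0.156 in edgeR) and its swim contrast at 1 year 0.54 ± 0.30 (adjusted p = 0.325). Per base of transcript the major paralogue exceeded the minor by 6.63 ± 3.52 times in young resting fish, 5.70 ± 1.86 in young swum, 8.65 ± 3.00 in old resting and 9.45 ± 1.57 in old swum fish. The ratios overlapped between all groups, the nearest to separate being young swum (3.88 to 8.55) and old swum (7.06 to 11).

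Of the 7 SMYD genes tested 0 passed in any of the 5 comparisons in edgeR, where 0.0705% to 17.7% of all genes passed. In the age effect with exercise 4 had an unadjusted p under 0.05, as did 5378 of all 17025 genes tested. There 2 of the 7, neither of them SMYD1, passed with DESeq2. In the other comparisons at most 2 had such a p, against 1537 to 3274 of all genes, and 0 passed with DESeq2. smyd2b, a paralogue of the lysine methyltransferase SMYD2, whose mammalian form methylates HSP90, came closest. It ranged from 27.5 to 61.3 CPM in old resting fish and from 40.5 to 102 CPM in old swum fish, a log2 difference of 0.84 ± 0.26 (adjusted p = 0.309 in edgeR), and its age contrast with exercise was 0.71 ± 0.26 (adjusted p = 0.0614). SMYD3, SMYD5 and smyd4 were at or below 3.62 CPM in every library.

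The genes whose levels were most like those of UNC45B were chaperones or cochaperones in 3 of 5 cases. Pearson correlations of log2 CPM were taken over the 20 libraries for 7230 genes with a symbol and a mean log2 CPM of 2 or more. Those highest with UNC45B were hsp90aa1.1 (0.906), an HSP90 gene expressed in zebrafish muscle, and STIP1 (0.879), the adaptor between HSP70 and HSP90. Next came uba1, the ubiquitin-activating enzyme (0.867), HSPA4, a nucleotide exchange factor of HSP70 (0.859), and EDC4, a decapping factor (0.810). With the group means removed, hsp90aa1.1 had 0.807 and STIP1 0.871, so the likeness also held within groups. These values share libraries, their scaling and their depth, and are a description.

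The hsp90aa1.1 levels in old swum fish were 73.5, 224, 77.8, 217 and 279 CPM, against 297 to 554 CPM in old resting and 259 to 678 CPM in young swum fish. Libraries 1 and 3, low for UNC45B, were also the lowest for hsp90aa1.1. With age among swum fish it fell by 1.37 ± 0.37 (adjusted p = 0.0162 in edgeR), and the contrast became -0.87 (adjusted p = 0.104) without the 3 libraries of high epidermis score. Its swim contrast at 3 years was -1.17 ± 0.37 (adjusted p = 0.322). STIP1 had 22.2, 24.3, 18.2, 33.7 and 37.9 CPM in old swum fish, overlapping every other group, and its age contrast with exercise was -0.48 ± 0.19 (adjusted p = 0.0879 in edgeR).

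**Figure D4:**
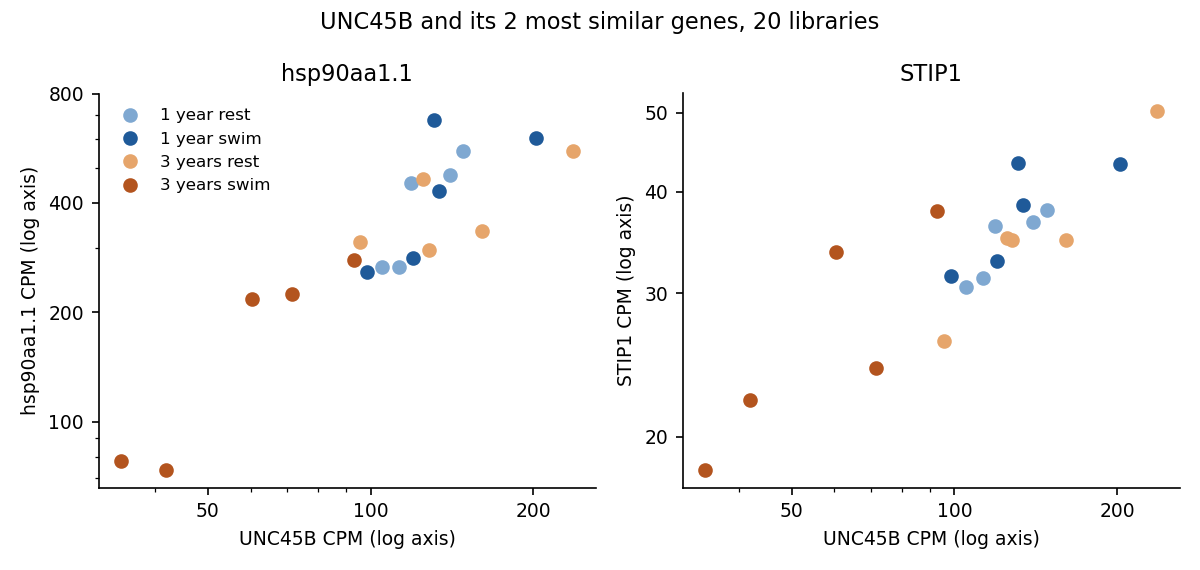
CPM of hsp90aa1.1 and STIP1 against those of UNC45B in the 20 libraries, on log axes and coloured by group. The old swum libraries lie to the left, and the libraries at 34.6 and 41.9 CPM of UNC45B are also lowest for both other genes.

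The patterns of the other 3 genes had different neighbours, though chaperones or cochaperones were also among those of both SMYD1 paralogues. The major SMYD1 paralogue was most like KLHL41, a Kelch protein that stabilises the sarcomere (r = 0.845), then CCT8, a subunit of the TRiC chaperonin that folds actin (0.834), SERBP1 (0.821), the translation factor subunit EIF3B (0.819) and the elongation factor gene eef1a1l1 (0.797). The minor paralogue was most like PTGES3 (0.806), the HSP90 cochaperone p23, its relative ptges3l (0.785), the endoplasmic reticulum chaperone HSPA5 (0.752), the ribosome rescue factor PELO (0.750) and the lamin gene LMNB1 (0.747). With group means removed, the neighbours of the major paralogue had 0.712 to 0.800 and those of the minor 0.687 to 0.842. METTL21C was most like CEP170, a centrosomal protein (0.855), PPP1R9B (0.850), the BMP transducer SMAD1 (0.846), the MHC class I gene mhc1zaa (0.846) and MAGI1 (0.843). With group means removed these 5 dropped to between 0.470 and 0.599, so much of their likeness to METTL21C lay between groups. CEP170, for example, averaged 2.6 ± 0.763 CPM in young swum fish against 4.74 ± 1.09 in young resting fish, and 6.01 ± 1.25 and 7.46 ± 1.3 in old resting and old swum fish.

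Beyond UNC45B alone, a list of 25 tested chaperones and partners was described. It holds UNC45B and also general chaperones and cochaperones, so it is not limited to the folding of myosin. In the age effect with exercise 0 rose and 6 fell. The fallers were UNC45B, hsp90aa1.1, 1 of the PTGES3 rows, both AHSA1 rows (activators of the HSP90 ATPase) and the small heat shock protein HSPB1. The median log2 change of the list was -0.34, against 0.04 for all genes, and 22 of 25 were negative, where 17.7% of all genes passed in either direction. AHSA1 (ENSDARG00000028664) fell the most, from 28 to 49.6 CPM in young swum fish to 2.46 to 15.1 CPM in old swum fish (-2.18 ± 0.56, adjusted p = 0.0116 in edgeR). At rest it had 27 to 64.9 CPM at 1 year and 3.7 to 49.4 CPM at 3 years. That contrast was -1.30 ± 0.54 (adjusted p = 0.243 in edgeR), against 0.26 ± 0.26 for UNC45B. PTGES3 (ENSDARG00000089626) fell by 0.85 ± 0.21, and HSPB1 by 0.88 ± 0.28 (adjusted p = 0.00972 and 0.0369 in edgeR). HSPB1 passed in 20 of 30 alternatives. The other PTGES3 row, ENSDARG00000037284, had the higher mean level (33.6 against 12.9 CPM). It was at -0.33 ± 0.19 and did not pass (adjusted p = 0.243 in edgeR). The constitutive HSP90AB1 had 235 to 423 CPM in young swum and 245 to 470 CPM in old swum fish, at 0.40 ± 0.20 (adjusted p = 0.186 in edgeR). In the other 4 comparisons 0 of the 25 passed in edgeR, where 0.0705% to 1.19% of all genes passed. There 2 to 7 had an unadjusted p under 0.05, against 1537 to 3274 of all 17025 genes tested. With DESeq2 or voom 0 or 1 of the list passed.

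The count of 6 ranged from 1 to 9 over 30 alternatives, and from 5 to 8 when 1 library was left out. It was 8 with DESeq2, all of them falling, and 9 with voom, of which 8 fell. Without the 3 libraries of high epidermis score 1 of the 25 passed, AHSA1 (ENSDARG00000028664), with a list median of -0.28; over all genes, 1429 passed there against 3010. Without the 2 young swum libraries of lowest scaling factor 1 gene of the list fell, UNC45B, and 1 rose, with a list median of -0.40. Scaled by library totals, which moved the median of all genes to 0.29, 4 fell and 1 rose, and the list median was -0.07.

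**Figure D5:**
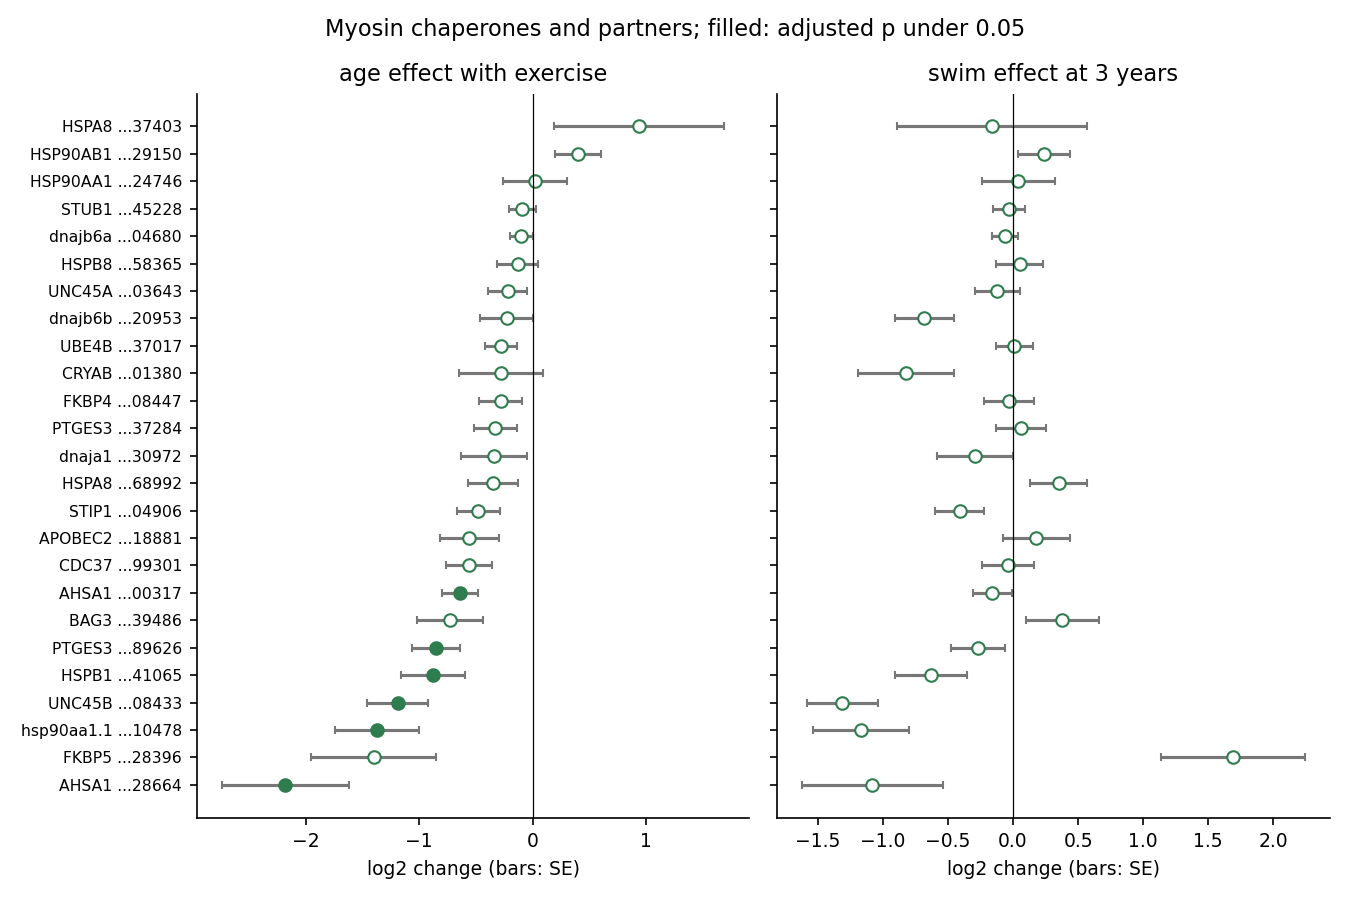
Log2 changes with standard errors of the 25 tested chaperones and partners in the age effect with exercise and the swim effect at 3 years; filled points have an adjusted p under 0.05. On the left 6 are filled, all negative, and on the right none.

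Among 20 tested methyltransferases of proteins other than histones, 1 rose with age in swum fish in edgeR, METTL21C, and 5 fell, where 17.7% of all genes passed. The list median was -0.25 against 0.04 for all genes. METTL21EP, which also rose there, is outside the list. METTL22 fell by 0.66 ± 0.14 and ANTKMT, which methylates the mitochondrial ADP/ATP carrier, by 0.82 ± 0.22 (adjusted p = 0.00415 and 0.0135 in edgeR). CSKMT, the citrate synthase methyltransferase, was at -0.53 ± 0.18 and passed narrowly (adjusted p = 0.0498). SETD3 and METTL18, which methylate histidine and not lysine, fell by 0.64 ± 0.12 and by 0.81 ± 0.24 (adjusted p = 0.00185 and 0.0235). SETD3 modifies actin, and went from 24.3 to 37.6 CPM in young swum to 15.7 to 21.7 CPM in old swum fish. With library totals METTL21C still rose and SETD3 was the only gene of the list that fell. Without the 3 libraries of high epidermis score 3 fell, and without the 2 of lowest scaling factor 2 fell and 2 rose. With voom 5 fell and 2 rose, the second riser in both settings being the METTL21C paralogue ENSDARG00000055437. In the other 4 comparisons 0 of the 20 passed in edgeR, where 0.0705% to 1.19% of all genes passed. There 2 to 6 had an unadjusted p under 0.05, against 1537 to 3274 of all 17025 genes tested. With DESeq2 0 or 1 of the list passed.

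Of 20 tested substrates of these enzymes, 2 fell with age in swum fish in edgeR and 0 rose, against 17.7% of all genes passing in either direction. ETFB, an electron carrier subunit methylated by ETFBKMT, fell from 242 to 334 CPM to 99.5 to 112 CPM (-1.37 ± 0.21, adjusted p = 0.000398 in edgeR), and passed in 30 of 30 alternatives. VCP, the ATPase of protein quality control, fell by 0.52 ± 0.15 (adjusted p = 0.0201) and was at -0.34 (adjusted p = 0.224) without the 3 libraries of high epidermis score. AARS1, the alanyl-tRNA synthetase that METTL21C methylates in mammals, averaged 75.8 ± 6.17 CPM in young swum and 74.1 ± 10.4 CPM in old swum fish. It was at 0.42 ± 0.12 in the age contrast at rest (adjusted p = 0.104 in edgeR).

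Myosin heavy chains were described over 19 tested genes. The list holds striated muscle forms, the clients of UNC45B, and also smooth muscle and non-muscle forms (MYH9, MYH10, MYH11 and myh14). Among the 19 genes myhz2, a fast heavy chain, was low in old resting fish. Its CPM were 35.8, 33.6, 79.6, 59.3 and 43.7 in that group, against 168 to 285 in young resting and 204 to 287 in young swum fish. In old swum fish they were 249, 48.5, 294, 303 and 377, so 4 of these 5 libraries were within or above the young ranges and library 2 was within the range of old resting fish. With age among resting fish myhz2 fell by 2.21 ± 0.37 (adjusted p = 0.00945 in edgeR, where 1.19% of genes passed), a call kept in 29 of 30 alternatives. The swim contrast at 3 years was 2.34 ± 0.37 (adjusted p = 0.0368 in edgeR, where 0.0705% of genes passed) and passed in 19 of 30 alternatives. It missed the threshold without any 1 of 8 libraries (1-year swim 2, 3-year rest 1, 2, 4 or 5, and 3-year swim 3, 4 or 5), with adjusted p of 0.0544 to 0.069 in edgeR. The difference between its swim contrasts at the 2 ages was 2.32 ± 0.51 (adjusted p = 0.0544 in edgeR). MYH11 (ENSDARG00000009782), a smooth muscle heavy chain, fell with age in both states, by 0.74 ± 0.16 at rest (adjusted p = 0.0281 in edgeR) and by 0.84 ± 0.16 in swum fish. The call at rest held in 21 of 30 alternatives and that in swum fish in 30 of 30. The other MYH11 row, ENSDARG00000100972, was not among the genes called in either state.

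In the age effect with exercise, in which UNC45B fell, 14 of the 19 heavy chain genes were positive and 5 negative, with a list median of 0.53 against 0.04 for all genes, but 1 rose and 2 fell in edgeR, where 17.7% of genes passed. The riser, myhz1.3, went up by 0.82 ± 0.21, from 4.3 to 10.1 CPM to 8.31 to 18.4 CPM. The fallers were MYH11 and the non-muscle gene myh14 (by 0.41 ± 0.14), neither of them a striated muscle form. DESeq2 called 8 of the 19, of which 5 rose and 3 fell, and scaling by library totals called 6, of which 5 rose. Without 3-year swim library 2, 4 rose and 2 fell. Fast myosin genes are near copies of each other, so their reads may be split between rows.

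Thick filament and M-line genes, 32 tested, had 1 riser and 1 faller in the age effect with exercise in edgeR, against 17.7% of all genes passing. The list also holds genes of other parts of the sarcomere, such as MYOZ1 and myoz1b, so it is not limited to these structures. TRIM54, a ubiquitin ligase of the sarcomere, rose by 1.66 ± 0.53 (adjusted p = 0.0353 in edgeR). It averaged 2.01 ± 1.47 and 6.26 ± 3.06 CPM in young and old swum fish, and 2.38 ± 1.14 and 7.57 ± 2.63 CPM at rest. trim63b, its relative MuRF1, fell by 1.47 ± 0.31, from 578 to 1732 CPM in young swum fish to 272 to 383 CPM in old swum fish. In the swim contrast at 1 year, trim63b rose by 1.77 ± 0.31 and nbr1a, an autophagy receptor, by 0.63 ± 0.12 (adjusted p = 0.0175 and 0.0185 in edgeR), where 1.14% of all genes passed. The calls of both genes could be lost with 1 library, since 0 of the 32 genes passed without 1-year rest library 1 or 3 or 1-year swim library 2. The same held without the 2 young swum libraries of lowest scaling factor, without the 2 libraries of high nerve score, or with the compared groups alone. With 1 library left out, trim63b missed in 4 of 20 fits (adjusted p of 0.0507 to 0.0639 in edgeR) and nbr1a in 3 (0.0507 to 0.0646). trim63b passed in 23 of 30 alternatives and nbr1a in 22, with library totals leaving nbr1a at 0.25 (adjusted p = 0.207). With age at rest nbr1a rose by 0.52 ± 0.12 (adjusted p = 0.0412 in edgeR), the 1 gene of the list called where 1.19% of genes passed, and passed in 13 of 30 alternatives. TRIM54 passed in 21 of 30.

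Of 23 tested muscle transcription factors and SMYD1 partners, 3 rose with age in swum fish and 0 fell in edgeR, against 17.7% of all genes passing in either direction. The homeobox gene six4b rose by 1.17 ± 0.26, MYOG, a regulator of myoblast differentiation, by 1.40 ± 0.38, and mrtfab, a coactivator of serum response factor, by 0.63 ± 0.17 (adjusted p = 0.00444, 0.0157 and 0.0181 in edgeR). MYOG had 1.1 to 2.96 CPM in young swum and 3.56 to 8.98 CPM in old swum fish. At rest it had 0.712 to 3.06 CPM at 1 year and 3.19 to 8.53 CPM at 3 years, where 0 genes of the list passed in edgeR. The count was 8 with library totals, 5 without 1-year swim library 1 and 1 without 3-year swim library 4. Neither SMYD1 paralogue rose in that comparison. six4b also fell by 1.11 ± 0.25 with swimming at 1 year (adjusted p = 0.0421 in edgeR, where 1.14% of genes passed), the comparison in which METTL21C was at -2.00, and the call of six4b held in 17 of 30 alternatives.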

How the data were processed

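RNA of 20 zebrafish muscle samples was sequenced. Per the submitters' processing notes, the tools were featureCounts 1.4.6-p4, STAR 2.4.1d and bcl2fastq 1.8.4, and the build was GRCz10. The annotation release, the strand setting and the handling of multi-mapping reads are not given in the sources used here. The deposited table holds raw counts per gene. The authors' further table, of scaled values, was read as a score: over 406 genes its implied lengths varied by a coefficient of variation of 0.133 with own library totals and 1.17e-06 with totals taken in turn, so it served only to recover transcript lengths for RPKM. Symbols came from a table of gene identifiers.

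edgeR 4.0.16 in R 4.3.3 was used with filterByExpr on the 4 groups, TMM scaling, 1 mean per group, robust quasi-likelihood F-tests and Benjamini-Hochberg adjustment over all 17025 genes tested (called under 0.05). The filter kept 99.95% of counts. CPM are TMM-scaled, and correlations and scores use log2 CPM with a prior count of 2. Swim and resting groups were compared at both ages, old and young fish were compared within swum and within resting groups, and the interaction was tested. The code was tested on simulated data. Named were the 4 genes and their family, per list and comparison up to 4 genes with the smallest adjusted p among those that passed (otherwise the gene of lowest p), and the 5 genes most like each member. METTL18, CSKMT, hsp90aa1.1 as a list member, HSPB1, HSP90AB1 and the PTGES3 row that did not pass were named after their values were seen. Members and lists were chosen with earlier results of these data known. Alternatives were RLE scaling, library totals, DESeq2 1.42.0, limma 3.58.1 voom with quality weights, no filter, a filter of 1 CPM in 5 libraries, only the groups compared, and libraries left out. Batch was not fitted, since none is labelled.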

Additional observations from a re-analysis of the deposited data

Results flagged for a closer look

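Within groups of 5 libraries, the gap of the highest or lowest library to its neighbour was compared with the whole range on the log2 CPM scale over 56 groups, for the 4 genes and their relatives. Chance gives a gap ratio above 0.71 in about 1 of 20 groups, and 3 groups passed it. METTL21EP in 3-year swim library 4 stood above the rest at 27.4 CPM (gap ratio 0.789). The METTL21C paralogue ENSDARG00000055437 in 3-year swim library 2 stood below the rest at 30.4 CPM (0.850). SMYD5 in 3-year rest library 2 stood below the rest at 1.81 CPM (0.717). None of the 4 main genes was singled out in this way.

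AMD1, which makes the decarboxylated S-adenosylmethionine of polyamine synthesis and so draws on the methyl donor of these enzymes, differed between the ages in its swim effect. It averaged 70.9 ± 14.3 CPM at rest and 61.8 ± 8.59 CPM after swimming at 1 year, against 53.4 ± 9.1 and 21.3 ± 2.45 CPM at 3 years. Its swim effect at 3 years was -1.32 ± 0.15 on the log2 scale (adjusted p = 0.00081 in edgeR), where 0.0705% of genes passed. That call was kept in 30 of 30 alternatives. The difference of the swim effects was -1.12 ± 0.21 on the log2 scale (adjusted p = 0.0308 in edgeR). It passed in 11 of 29 alternatives, with values from -1.23 to -0.83.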

How the results depend on the processing

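No paired analysis was possible because the labels give no replicate numbers. With 30 alternatives per comparison (29 for the interaction), METTL21C kept its direction in all settings except the swim effect at 3 years, where leaving out 1 library each gave -0.89 to 0.02, and the rise with age in swum fish passed in all. For the swim effect on METTL21C at 1 year, library totals gave -2.34, DESeq2 and the filter of 1 CPM in 5 libraries gave -2.02, and these passed, while leaving out 1 library gave -2.13 to -1.82 and passed without 3-year rest library 1 or 3 or 3-year swim library 4 or 5. With library totals the swim effects at 1 year were -0.03 for the major SMYD1 paralogue and -0.27 for UNC45B. UNC45B passed with DESeq2 in the swim effect at 3 years (-1.30) and the interaction (-1.41), and failed in the age effect with exercise without the libraries of high epidermis score (-0.84). Counts of genes called over the whole table moved more. For the swim effect at 1 year, against 194, they were 1748 with library totals, 901 with DESeq2, 93 with no filter, 320 with voom, 3 with the groups compared alone, 9 without the 2 libraries of high nerve scores, and 0 without the 2 of low TMM factor (1668 genes at an unadjusted p under 0.05 in edgeR, against 3274), and 6 to 351 leaving out 1 library. For the swim effect at 3 years, against 12, they were 3 with library totals, 107 with DESeq2, 2 with the groups alone, 2, 5 and 5 without the epidermis, TMM and nerve libraries, and 1 to 13 leaving out 1. For the age effect without exercise, against 203, they were 720 with DESeq2, 113 with no filter, 682 with voom, 94 with the groups alone, 115 and 9 without the epidermis and nerve libraries, and 56 to 403 leaving out 1. For the age effect with exercise, against 3010, it was 1429 without the epidermis libraries, and library totals turned the split from 1293 higher and 1717 lower to 2885 and 931. For the interaction, against 57, they were 31 with RLE, 4 with library totals, 407 with DESeq2, 4 with no filter, 23 with voom, 2, 5 and 3 without the epidermis, TMM and nerve libraries, and 3 to 163 leaving out 1. List counts under these settings were computed after seeing the data. The cause of these shifts was not tested. Depth limits METTL21C in young swum fish, at 25 to 103 counts per library.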

Other observations

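The cycle that supplies and clears the methyl donor S-adenosylmethionine had 19 tested genes. In the age effect with exercise 1 rose and 3 fell in edgeR, where 17.7% of all genes passed, and the list median was -0.24 against 0.04 for all genes. The count of 4 became 2 without the 3 libraries of high epidermis score or without 3-year swim library 3 alone. BHMT, which remethylates homocysteine from betaine, rose by 1.03 ± 0.30 on the log2 scale (adjusted p = 0.0226 in edgeR). AMD1 fell by 1.54 ± 0.15, MTR, the methionine synthase, by 1.02 ± 0.27, and MAT1A, the liver form of methionine adenosyltransferase, by 1.82 ± 0.58. MAT1A was at or below 2.31 CPM outside the young swum group and passed in 16 of 30 alternatives. In that group it ranged from 0.915 to 7.1 CPM, a mean of 2.58 ± 2.59, against 1.39 ± 0.606 in young resting fish. Liver markers were also high in the young swum group, and their part in the level of MAT1A was not tested. In the age effect without exercise, GAMT, which uses the methyl donor to make creatine, rose by 1.00 ± 0.24 (adjusted p = 0.0464 in edgeR) and passed in 7 of 30 alternatives. It was the 1 gene of the list called there in edgeR, where 1.19% of all genes passed. The list leaned the other way, with 16 genes negative and 3 positive and a median of -0.31 against 0.01 for all genes. In edgeR 9 of the 19 had an unadjusted p under 0.05, as did 2701 of all 17025 genes tested. With DESeq2 4 passed and with voom 3, and both tools also called more genes than edgeR there over the whole table. In the swim effect at 3 years 1 of the 19 fell in edgeR, AMD1, and 0 rose, where 0.0705% of all genes passed.

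Of 17 tested ubiquitin ligases and autophagy receptors of muscle, 2 rose with swimming at 1 year in edgeR (trim63b and nbr1a), where 1.14% of all genes passed, and 0 passed without 1-year rest library 1 or 3 or 1-year swim library 2. Both genes are also in the thick filament and M-line list, and their calls are the same ones described there. With age in swum fish 0 rose and 2 fell (trim63b and VCP), where 17.7% of all genes passed. With age at rest nbr1a rose by 0.52 ± 0.12 (adjusted p = 0.0412 in edgeR), where 1.19% passed.

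FKBP5, an HSP90 cochaperone induced by glucocorticoids, passed in no comparison in edgeR over all 4 groups. It passed with voom in the swim effect at 1 year (2.10, adjusted p = 0.0366), and in the age effect with exercise with DESeq2 (-1.40, adjusted p = 0.0394) and with the compared groups alone (-1.38, adjusted p = 0.0128 in edgeR). It averaged 251 ± 218 CPM in young resting, 746 ± 220 CPM in young swum, 87.4 ± 56.5 CPM in old resting and 283 ± 111 CPM in old swum fish. Its swim contrasts were 1.57 ± 0.55 at 1 year (adjusted p = 0.139 in edgeR) and 1.69 ± 0.55 at 3 years (adjusted p = 0.342).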
